A study of Mus musculus with 12 samples.

Results

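Open chromatin in Hdac7SA.Mef2d cells, which the study could reprogram to pluripotency, was set against that in Hras.Myc cells treated with PD, which it could not. The comparison covered every locus with an ATAC-seq peak in the list of either group, where a locus is a stretch of overlapping peaks merged over the 7 deposited lists. It held 127120 loci of 147985 in the whole series. ATAC-seq marks DNA that the Tn5 transposase can reach.

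All cells were transformed mouse embryonic fibroblasts (MEFs). Hdac7SA.Mef2d cells were untreated and carried Hdac7SA, a form of the class IIa histone deacetylase Hdac7 whose serines were changed to alanine to keep it in the nucleus, together with the transcription factor Mef2d. Hras.Myc cells (Ras.Myc in the sample titles) carried the Hras and Myc oncogenes and had 2 days of PD (PD0325901), an inhibitor of the kinase MEK. Each group had 2 libraries of about 50000 cells and 1 peak list in which they were pooled, so spread between replicates could not be measured and no p-value is given. Transgenes and treatment both differ between the groups and cannot be told apart, although an untreated Hras.Myc list was at hand. The labels give OG2 MEFs as the cell line and ICR embryos as the origin, and the sources used here do not say whether a line was 1 clone. Transgenes that integrate into the genome can also be read as open chromatin at their own genes.

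Class IIa histone deacetylases bind MEF2 factors and hold down their targets, many of them muscle genes. MEK activates ERK, and ERK signalling raises the abundance and activity of AP-1, the Fos and Jun proteins, which open many enhancers in fibroblasts. Promoters of widely used genes are open in most cells, and enhancers far from promoters vary more from one cell state to another.

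The sequences below carry the motifs in which the groups differed. Each is the central 200 bp of a distal locus open in 1 of the 2 lists, mm10, plus strand, with the motif in capitals. The first 3 were open only in Hdac7SA.Mef2d and hold AP-1 motifs (TGACTCA on either strand). They are the highest ranked at named genes, an intron of the collagen gene Col4a5, a site upstream of the kinesin gene Kif3a and an intron near Runx2. The motif lay in 22.1% of all loci of both lists. The fourth, in an intron of the matrix gene Dcn, was also open only in Hdac7SA.Mef2d and holds a RUNX motif (TGTGGTT on either strand), found in 7.46% of all loci. It also holds 1 AP-1 motif, which is left in lower case.
Col4a5 chrX:141533544-141533743: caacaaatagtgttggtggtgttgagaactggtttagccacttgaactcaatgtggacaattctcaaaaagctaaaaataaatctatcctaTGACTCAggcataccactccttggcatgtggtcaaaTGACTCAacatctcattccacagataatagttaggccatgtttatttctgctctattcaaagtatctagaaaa
Kif3a chr11:53560033-53560232: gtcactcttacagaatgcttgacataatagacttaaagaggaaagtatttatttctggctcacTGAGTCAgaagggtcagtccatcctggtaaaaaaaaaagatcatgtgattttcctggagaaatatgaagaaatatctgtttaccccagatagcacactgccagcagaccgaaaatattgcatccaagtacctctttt
Runx2 chr17:44555049-44555248: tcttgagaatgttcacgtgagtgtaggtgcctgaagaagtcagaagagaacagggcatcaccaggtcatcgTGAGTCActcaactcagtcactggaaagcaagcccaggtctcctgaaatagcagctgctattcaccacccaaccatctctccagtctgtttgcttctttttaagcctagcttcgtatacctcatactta
Dcn chr10:97516541-97516740: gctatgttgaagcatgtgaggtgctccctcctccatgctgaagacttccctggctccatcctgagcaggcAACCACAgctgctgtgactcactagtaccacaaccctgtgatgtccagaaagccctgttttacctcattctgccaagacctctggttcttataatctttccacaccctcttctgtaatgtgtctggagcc

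The next 3 loci were open only in Hras.Myc+PD and hold a HOX motif (TAATTA, a palindrome), which lay in 3.94% of all loci. They lie in introns near the ubiquitin ligase gene Cblb, the neuronal microtubule gene Map2 and the talin gene Tln2. The last 2, nearest to Mctp1 and to the homeobox gene En1, hold a full palindromic NFI motif, found in 0.0535% of all loci. No NFI locus lay at a named gene, so these were taken by rank alone. The HOX and RUNX sets were chosen after the motif values had been seen.
Cblb chr16:52149448-52149647: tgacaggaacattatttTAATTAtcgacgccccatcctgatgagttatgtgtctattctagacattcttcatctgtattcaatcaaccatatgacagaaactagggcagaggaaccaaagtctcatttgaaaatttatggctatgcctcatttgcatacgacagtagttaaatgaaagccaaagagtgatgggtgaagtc
Map2 chr1:66226795-66226994: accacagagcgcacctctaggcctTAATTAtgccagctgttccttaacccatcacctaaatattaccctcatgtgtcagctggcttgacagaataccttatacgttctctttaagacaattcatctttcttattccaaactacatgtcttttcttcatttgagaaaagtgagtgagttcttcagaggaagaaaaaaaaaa
Tln2 chr9:67432324-67432523: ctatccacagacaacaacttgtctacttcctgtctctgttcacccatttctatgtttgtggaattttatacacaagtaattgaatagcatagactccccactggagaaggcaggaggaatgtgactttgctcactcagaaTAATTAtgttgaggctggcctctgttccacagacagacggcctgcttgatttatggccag
Mctp1 chr13:76484228-76484427: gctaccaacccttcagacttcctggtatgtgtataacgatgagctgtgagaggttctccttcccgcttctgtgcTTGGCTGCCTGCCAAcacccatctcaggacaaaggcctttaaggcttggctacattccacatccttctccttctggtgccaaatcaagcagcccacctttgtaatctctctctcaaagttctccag
En1 chr1:120558737-120558936: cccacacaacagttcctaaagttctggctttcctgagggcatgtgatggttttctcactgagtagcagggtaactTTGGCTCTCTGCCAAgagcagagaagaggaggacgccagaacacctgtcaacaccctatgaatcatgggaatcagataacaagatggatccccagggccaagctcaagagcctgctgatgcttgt

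Hdac7SA.Mef2d held most of what was open in Hras.Myc+PD and much more beside. The Hdac7SA.Mef2d list had 119251 peaks over 47.7 Mb, and that of Hras.Myc+PD had 56774 over 22.7 Mb. Of the 127120 loci, 47746 (37.6%, 37.3 to 37.8) were open in both. Those open only in Hdac7SA.Mef2d numbered 70878, or 55.8%, and those open only in Hras.Myc+PD numbered 8496, or 6.68%. Ranges in parentheses are exact binomial 95% intervals. They include only counting error and take each locus as independent of its neighbours. Hdac7SA.Mef2d was open at 84.9% (84.6 to 85.2) of the Hras.Myc+PD loci, and Hras.Myc+PD at 40.2% (40.0 to 40.5) of the Hdac7SA.Mef2d loci. Sequencing depth is unknown, and the absence of a peak does not show that a site was closed.

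The label of fibroblasts was compared with promoters of marker genes. The promoter was open for 13 of 14 fibroblast markers in Hdac7SA.Mef2d cells and for 12 in Hras.Myc+PD cells, and the difference was Col1a2, a chain of collagen I. Of 8 markers, the former had 5 neural, 5 endothelial, 3 blood, 2 muscle, 6 epithelial and 3 pluripotent promoters open, and the latter 5, 2, 1, 0, 7 and 3. Over all 21827 protein-coding genes, 13256 had an open promoter in both lists, 1137 only in Hdac7SA.Mef2d and 271 only in Hras.Myc+PD. Among marker promoters open only in Hdac7SA.Mef2d, Sox17 ranked 2.09 by score, Cd68 5.69, Cd79a 21.4, Actc1 29.3, Tek 49.1 and the stronger Des locus 70.4. An open promoter does not show that a gene is expressed. The part of other cell types in the differences was not tested.

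The 3 classes differed in where they lay. Promoter loci, those 1000 bp or less from the TSS (the transcription start) of any protein-coding gene, made up 28.1% (27.7 to 28.5) of the shared loci. They made up 2.80% (2.68 to 2.92) of the loci open only in Hdac7SA.Mef2d and 7.37% (6.82 to 7.94) of those open only in Hras.Myc+PD. Over all promoter loci of both lists, 12.4% were open only in Hdac7SA.Mef2d and 3.91% only in Hras.Myc+PD. More than 50000 bp from any TSS lay 50.2% of the loci open only in Hdac7SA.Mef2d, 39.6% of those open only in Hras.Myc+PD and 25.4% of the shared loci. Mean GC content was 44.0% in the first, 49.3% in the second and 54.0% in the shared loci. Loci open only in Hdac7SA.Mef2d were thus the farthest from a TSS and the poorest in GC, and 43.5% of them lay in introns, against 33.1% of shared loci.

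Counted by gene, 13256 of 21827 protein-coding genes had an open promoter in both lists. A further 1137 had one only in Hdac7SA.Mef2d and 271 only in Hras.Myc+PD, and 7163 had none in either.

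**Figure D1:**
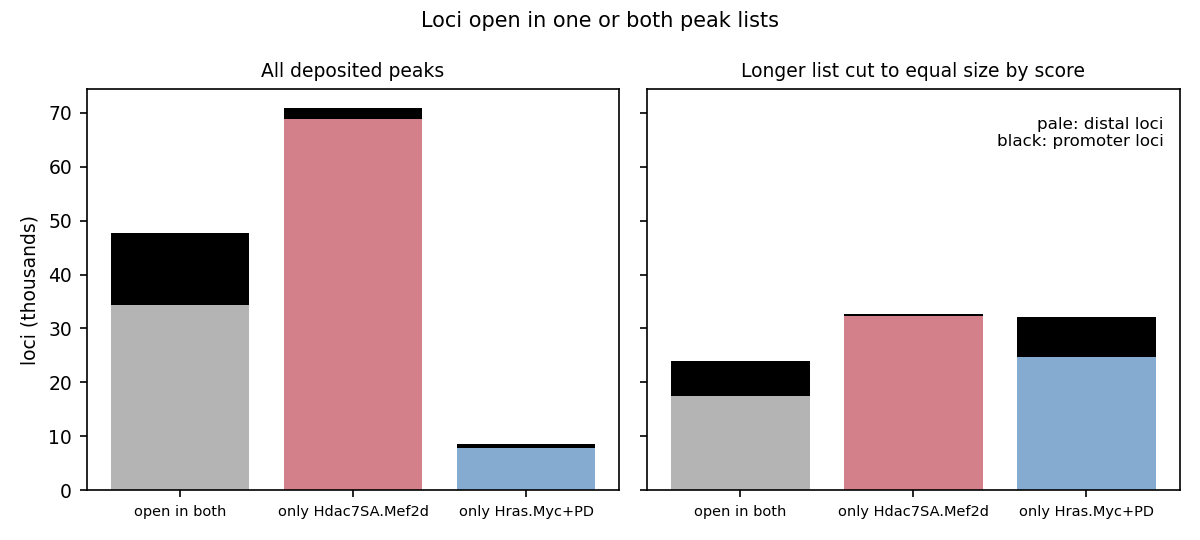
Number of loci (axis in units of 1000) open in both lists or in a single list, with distal loci pale and promoter loci black, for all deposited peaks (left) and with the Hdac7SA.Mef2d list cut by score to the 56774 peaks of Hras.Myc+PD (right). Loci open only in Hras.Myc+PD go from 8496 to 32190 and their promoter loci from 626 to 7504.

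The authors' score was used to rank loci within a list from 0 (lowest) to 100 (highest). Loci open only in Hdac7SA.Mef2d were not the weak end of that list. Their median rank was 48.2 (quartiles 23.2 and 74.9), against 52.8 for shared loci in the same list, and 17634 of 70878 were in its top 25%. Loci open only in Hras.Myc+PD ranked lower, with a median of 36.0 (quartiles 13.4 and 65.2) against 52.6 for shared loci there, and 1528 of 8496 were in the top 25%. At promoters the ranks of single-list loci were low in both, with medians of 24.0 in Hdac7SA.Mef2d and 9.05 in Hras.Myc+PD. Shared loci kept their order better at promoters (Spearman correlation 0.80 over 13416 loci) than at distal sites (0.49 over 34330), as a description across loci of 2 lists that were made with shared peak information.

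Among Hras.Myc+PD loci, the share open in Hdac7SA.Mef2d went from 69.1% in the lowest 10% by score to 89.1% in the highest. Among Hdac7SA.Mef2d loci the share open in Hras.Myc+PD did not move in one direction. It was 33.5% in the lowest 10%, 44.7% in the seventh decile and 37.9% in the highest. Promoter loci of Hdac7SA.Mef2d went from 63.0% in the lowest 10% to 95.1% in the seventh decile and 91.4% in the highest, and its distal loci stayed between 29.5% and 36.4% in every score decile.

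**Figure D2:**
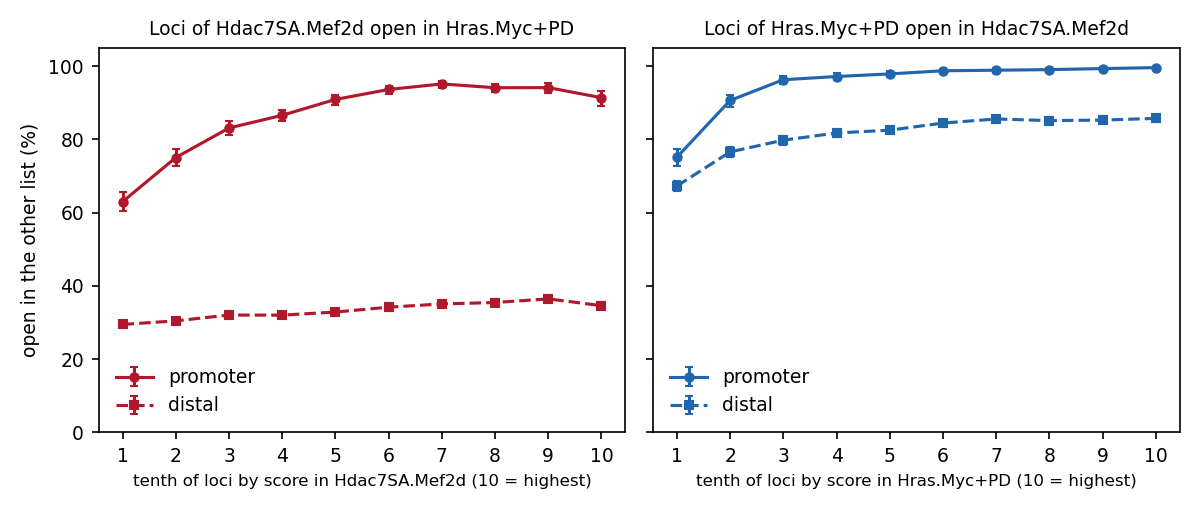
Share of loci (%) also open in the other list, by decile of score within the list (10 is the highest), for promoter loci (circles) and distal loci (squares), with exact 95% intervals for counting error. Distal Hdac7SA.Mef2d loci stay between 29.5% and 36.4%, while distal Hras.Myc+PD loci go from 67.3% to 85.7%.

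With the Hdac7SA.Mef2d list cut to its 56774 highest scores, 24052 loci were shared, 32649 (36.7%) were open only in Hdac7SA.Mef2d and 32190 (36.2%) only in Hras.Myc+PD. Of those 32190, 23694 (73.6%, 73.1 to 74.1) had a weaker Hdac7SA.Mef2d peak that the cut removed, and 6878 of these lay at promoters. Promoter loci then made up 23.3% of the loci open only in Hras.Myc+PD and 1.26% of those open only in Hdac7SA.Mef2d. The cut gave the lists equal numbers of peaks, so the counts of single-list loci became nearly equal by construction. The cut could not test the excess of loci on the Hdac7SA.Mef2d side, which is an observation on the full lists. The distal position of that side held in the full lists and after the cut.

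AP-1 motifs were more frequent in the loci open only in Hdac7SA.Mef2d than in shared loci, and less frequent in those open only in Hras.Myc+PD. A search of 28 consensus motifs in the central 200 bp, on both strands and with overlaps between motifs counted for each, was set against shared loci weighted to the same GC content. The motif lay in 27.3% (19372 of 70878) of the loci open only in Hdac7SA.Mef2d, a ratio of 1.30 (1.26 to 1.34) to shared loci. It lay in 11.6% (10.9 to 12.3) of those open only in Hras.Myc+PD, a ratio of 0.60 (0.56 to 0.64). Compared directly at matched GC content, the motif was 2.68 times (2.50 to 2.88) as frequent in the Hdac7SA.Mef2d class. RUNX motifs, bound by factors of bone and blood development that often act with AP-1, had ratios of 1.27 (1.21 to 1.34) and 0.73 (0.65 to 0.81).

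HOX motifs, the core site of homeodomain factors that set position along the body, ran the other way. They lay in 467 of the 8496 loci open only in Hras.Myc+PD (5.50%), a ratio of 1.5 (1.35 to 1.66). In the Hdac7SA.Mef2d class the ratio was 0.86 (0.80 to 0.92), but 1.60 without matching for GC content. ZEB/SNAI E-boxes (CAGGTG), sites of repressors of epithelial genes, had ratios of 1.15 (1.08 to 1.22) in the Hras.Myc+PD class and 0.72 (0.68 to 0.75) in the Hdac7SA.Mef2d class, and lay in 8.51% of all loci. NFI had the highest ratio in the Hras.Myc+PD class, 2.21 (1.2 to 4.06), but rested on 16 loci, and its interval held 1 with lists of equal size (0.775 to 2.60). TCF/LEF motifs (ATCAAAG) were at 1.25 (1.09 to 1.42) in that class.

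MEF2 motifs were not more frequent in the Hdac7SA.Mef2d class. They lay in 774 of its 70878 loci, a ratio of 0.76 (0.66 to 0.87), and of 1.31 without matching for GC content. In the Hras.Myc+PD class the ratio was 0.77 (0.60 to 0.997), and 0.976% of all loci held the motif. The CTCF motif, bound by an insulator protein, was rare in both classes, at 0.16 (0.14 to 0.18) and 0.25 (0.20 to 0.32), and lay in 1.48% of all loci. ETS motifs (CCGGAAGT) were at 0.34 and 0.28, but without promoter loci their intervals held 1 in both classes (0.586 to 1.03 and 0.554 to 1.32).

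**Figure D3:**
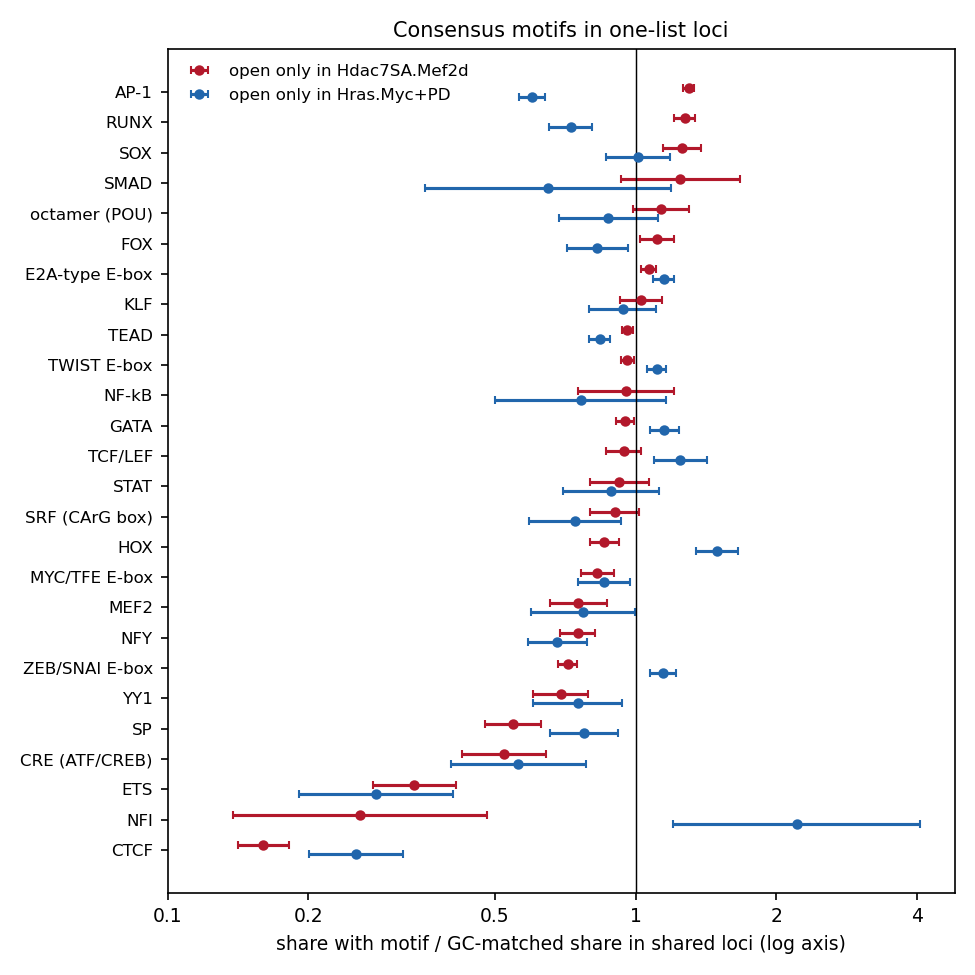
Ratio of the share of loci with each motif to the GC-matched share in shared loci (log axis) for loci open only in Hdac7SA.Mef2d (red) and only in Hras.Myc+PD (blue), for the 26 motifs found in 10 or more loci of each class, with approximate 95% intervals for counting error. AP-1 and RUNX lie to the right in red and to the left in blue, and HOX the reverse.

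AP-1 motifs were then counted by whether a locus was open in untreated Hras.Myc. Of the loci open only in Hdac7SA.Mef2d, 15291 (21.6%) were open in Hras.Myc without PD. AP-1 motifs lay in 49.5% (48.7 to 50.3) of these, a ratio of 2.38 (2.32 to 2.44), and 7.42% held more than 1 site. In the other 55587 loci, not open in Hras.Myc with or without PD, the share was 21.2% (20.9 to 21.6) and the ratio 1.01 (0.98 to 1.04). The reference for both ratios was all shared loci, of which 79.7% were open in untreated Hras.Myc. Among loci not open there, AP-1 lay in 21.2% of this class and 7.86% of shared loci, without matching for GC content. Among loci open there, the shares were 49.5% and 18.2%. AP-1 was thus more frequent than in shared loci in both groups, and more frequent in the loci that untreated Hras.Myc cells also had open. RUNX motifs were higher than in shared loci in both groups, at 1.13 (1.06 to 1.21) and 1.31 (1.23 to 1.39).

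The loci open only in Hras.Myc+PD split the same way. AP-1 motifs lay in 23.5% (22.1 to 25.0) of the 3355 that were open in Hras.Myc without PD, and in 3.79% (3.29 to 4.35) of the 5141 that were not. The ratios to shared loci were 1.32 (1.24 to 1.41) and 0.19 (0.16 to 0.22). The HOX ratio was 1.09 (0.89 to 1.34) in the former and 1.65 (1.47 to 1.85) in the latter. Shared loci showed it too, with AP-1 motifs in 18.2% of those open in untreated Hras.Myc and 7.86% of the rest. In each of the 3 classes, loci without a peak in untreated Hras.Myc held AP-1 less often than those with one.

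Motifs also varied with rank. In distal loci open only in Hdac7SA.Mef2d, the share with AP-1 was 23.3% in the lowest 25% of that list by score and 35.1% (34.4 to 35.8) in the highest. In distal loci open only in Hras.Myc+PD it was 14.5% in the lowest and 8.73% (7.35 to 10.3) in the highest. HOX motifs went from 4.36% to 7.99% (6.67 to 9.48) in the same Hras.Myc+PD loci, and stayed between 4.29% and 4.81% in those of Hdac7SA.Mef2d. For AP-1 and HOX the classes stood farther apart in the strongest loci than in the weakest. CTCF motifs went the other way, at 0.565% (0.461 to 0.686) and 1.41% (1.01 to 1.91) in the lowest 25% of Hdac7SA.Mef2d and Hras.Myc+PD, and 0.395% (0.308 to 0.500) and 0.266% (0.0727 to 0.681) in the highest.

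**Figure D4:**
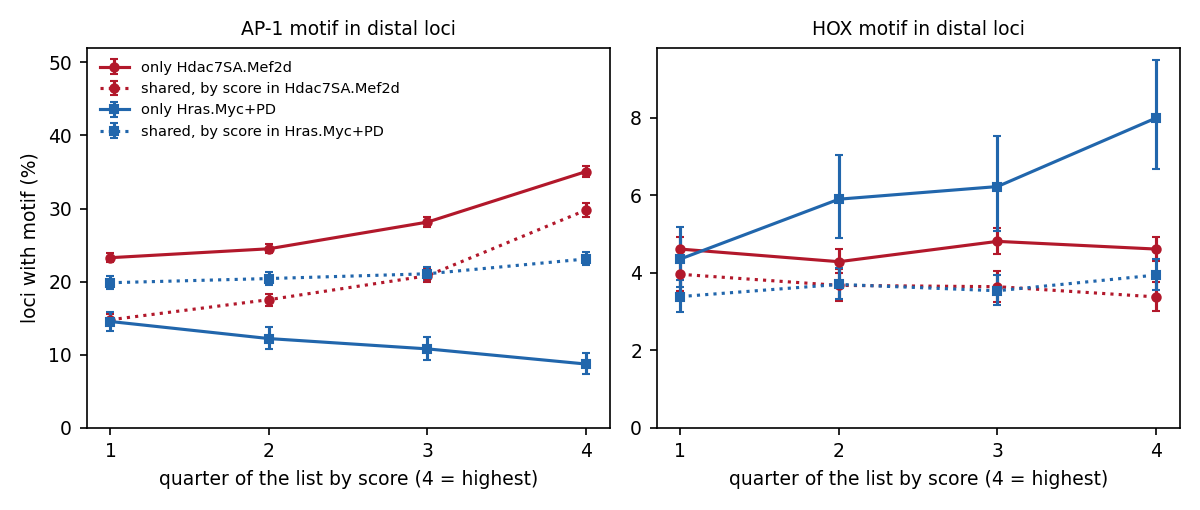
Share of distal loci (%) with an AP-1 motif (left) or a HOX motif (right) by quartile of score within the list (4 is the highest), for single-list loci (solid) and shared loci (dotted), red by score in Hdac7SA.Mef2d and blue in Hras.Myc+PD, with exact 95% intervals for counting error. AP-1 reaches 35.1% in the strongest Hdac7SA.Mef2d loci and 8.73% in the strongest Hras.Myc+PD loci.

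The other 5 lists placed the classes in the series. Of the loci open only in Hdac7SA.Mef2d, 35502 (50.1%) were open in none of them, 33.7% were open in Hras.E1A and 15.7% in Hras.E1A with PD. Of those open only in Hras.Myc+PD, 2322 (27.3%) were open in no other list, and 47.7% (46.6 to 48.8) were open in Hras.E1A with PD, more than in any other list. Of the shared loci, 29875 (62.6%) were open in all 5.

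Within 10000 bp of a TSS, 33% of 33949 loci were open only in Hdac7SA.Mef2d and 6.21% only in Hras.Myc+PD, and gene lists are given beside those shares. The MEF2 targets and muscle genes had 32 of 69 loci open only in Hdac7SA.Mef2d (46.4%, 34.3 to 58.8) and 3 only in Hras.Myc+PD. Away from promoters, however, their share was 24 of 48 (50.0%), beside 51.5% over all distal loci within the same distance, so what set the list apart lay at its promoters. Over all protein-coding genes, 1137 of 21827 had a promoter open only in Hdac7SA.Mef2d and 271 only in Hras.Myc+PD. Of the 30 genes of the list, 16 had an open promoter in Hdac7SA.Mef2d and 10 in Hras.Myc+PD. The promoters open only in Hdac7SA.Mef2d were those of Acta1 and Actc1, the skeletal and cardiac actins, Des, the muscle intermediate filament desmin, Tnnt3, a troponin, Casq2, a calcium store protein, and Myf6, a muscle regulatory factor. None was open only in Hras.Myc+PD. By rank in Hdac7SA.Mef2d, the stronger of the Des loci stood at 70.4, Myf6 at 44.3, Tnnt3 at 32.2 and Actc1 at 29.3. Casq2 stood at 6.12 and Acta1 at 3.45, and neither was open in any other list. The Tnnt3 and Myf6 loci were also open in untreated Hras.Myc and Hras.E1A. Actc1 and the weaker Des locus were also open in untreated Hras.E1A, and the stronger Des locus in Hras.E1A with PD.

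Among the regulators themselves, MEF2 factors and class IIa histone deacetylases had 15 of 34 loci open only in Hdac7SA.Mef2d (44.1%, 27.2 to 62.1) and 1 only in Hras.Myc+PD, and all 8 promoters were open in both. At Mef2d, a transgene of the line, a locus over a coding exon (chr3:88159015-88159414) was open only in Hdac7SA.Mef2d at rank 96.9. A second coding locus (chr3:88167755-88168154) was open only there at rank 13.8. At Hdac7, 4 loci in the gene were open only in Hdac7SA.Mef2d and 6 were shared. At Myc, a transgene of the other line, a coding locus (chr15:61987699-61988098) was open only in Hras.Myc+PD at rank 3.56. Hras had 1 shared locus in the gene and 1 open only in Hras.Myc+PD within 10000 bp. At loci over exons of these genes, reads of the transgenes and of the genes cannot be separated. The 4 Hdac7 loci open only in Hdac7SA.Mef2d lay in introns. The locus near Hras open only in Hras.Myc+PD lay at the TSS of the neighbouring gene Lrrc56.

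Matrix proteases and invasion genes had 20 of 56 loci open only in Hdac7SA.Mef2d (35.7%, 23.4 to 49.6) and 0 only in Hras.Myc+PD, where the interval reached 6.38% and so held the 6.21% of all loci. Their promoters differed. Hdac7SA.Mef2d had 19 of 21 open and Hras.Myc+PD had 15, and Mmp3, Mmp10, Mmp13 and Lox made the difference. Over all genes, 1137 of 21827 had a promoter open only in Hdac7SA.Mef2d. Mmp3, Mmp10 and Mmp13 encode secreted enzymes that degrade matrix, and Lox encodes an enzyme that crosslinks collagen. Mmp10 ranked 78.5 in Hdac7SA.Mef2d, Mmp3 73.6, Mmp13 53.7 and Lox 24.0. The Mmp10 and Mmp13 loci were also open in untreated Hras.E1A and Hras.Myc, with no peak in either line with PD, and the Mmp3 locus was open in no other list.

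The promoters of the 3 Mmp genes and of both actins hold motifs close to the TSS. The sequences are the 250 bases before the TSS, 5′ to 3′ on the gene's strand, from the RefSeq promoters of GRCm38.p6 (11 of 15 such genes matched; Actg2, Lox, Myf6 and Tnnt3 did not). Mmp3, Mmp10 and Mmp13 lie on the plus strand and Acta1 and Actc1 on the minus strand. Capitals mark AP-1 motifs in the Mmp promoters, starting 46, 63 and 35 bases before the TSS in Mmp3, Mmp10 and Mmp13, and a RUNX motif farther up in Mmp13. In Acta1 and Actc1 they mark the CArG box of SRF, starting 73 and 47 bases before the TSS. The same window held AP-1 in 4.46%, RUNX in 4.40% and the CArG box in 1.47% of 32851 promoters, and MEF2 in 0.508%, which neither actin promoter held. The remaining matched genes, Des, Casq2, Col1a2, Col6a3, Col8a2 and Col9a1, held none of these motifs in that window.
Mmp3 chr9:7445572-7445821: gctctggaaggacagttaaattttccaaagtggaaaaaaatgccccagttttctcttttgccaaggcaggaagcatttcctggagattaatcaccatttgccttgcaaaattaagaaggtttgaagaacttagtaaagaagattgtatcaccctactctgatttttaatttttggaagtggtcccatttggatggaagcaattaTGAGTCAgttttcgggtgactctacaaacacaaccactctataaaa
Mmp10 chr9:7502092-7502341: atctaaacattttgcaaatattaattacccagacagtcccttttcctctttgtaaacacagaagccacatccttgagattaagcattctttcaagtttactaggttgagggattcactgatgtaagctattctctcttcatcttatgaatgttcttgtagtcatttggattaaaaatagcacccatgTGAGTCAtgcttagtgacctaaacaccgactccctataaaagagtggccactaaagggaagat
Mmp13 chr9:7272264-7272513: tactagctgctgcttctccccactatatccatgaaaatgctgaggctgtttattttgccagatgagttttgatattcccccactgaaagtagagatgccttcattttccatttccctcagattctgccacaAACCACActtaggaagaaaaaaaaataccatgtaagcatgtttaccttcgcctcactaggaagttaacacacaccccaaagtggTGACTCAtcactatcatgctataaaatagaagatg
Acta1 chr8:123894776-123895025: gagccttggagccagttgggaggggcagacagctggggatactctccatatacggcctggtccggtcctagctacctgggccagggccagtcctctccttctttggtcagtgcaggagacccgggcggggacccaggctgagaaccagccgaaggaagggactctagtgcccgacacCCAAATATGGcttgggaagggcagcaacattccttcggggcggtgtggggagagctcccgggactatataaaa
Actc1 chr2:114052876-114053125: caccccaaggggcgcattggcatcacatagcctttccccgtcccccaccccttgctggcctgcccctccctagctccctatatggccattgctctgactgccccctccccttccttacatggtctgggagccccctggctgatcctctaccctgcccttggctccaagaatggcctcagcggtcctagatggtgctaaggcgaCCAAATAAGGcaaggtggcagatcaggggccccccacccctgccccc

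Genes of the TGF-beta pathway had 30 of 68 loci open only in Hdac7SA.Mef2d (44.1%, 32.1 to 56.7), and away from promoters 27 of 40 (67.5%, 50.9 to 81.4), an interval that held the 51.5% of all distal loci within that distance. Within 5000 bp of a TSS the list had 9 of 42 (21.4%, 10.3 to 36.8), beside 24.4% over all genes. Tgfbr1, a receptor that TGF-beta signals through, had 7 such loci and 1 shared. Its promoter locus was shared and ranked 80.2 in Hdac7SA.Mef2d and 89.6 in Hras.Myc+PD, and the 7 loci ranked from 0.304 to 80.8. Inhba, a chain of activin, and Smad7, an inhibitor of the pathway, had 3 each within 10000 bp of a TSS and none only in Hras.Myc+PD there, though Smad7 had 2 of the latter farther inside the gene.

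Receptor tyrosine kinases had 29 of 71 loci (40.8%, 29.3 to 53.2) open only in Hdac7SA.Mef2d, and 25 of 40 (62.5%, 45.8 to 77.3) away from promoters, an interval that also held 51.5%. The collagen receptor Ddr2 and the hepatocyte growth factor receptor Met had 5 each within 10000 bp of a TSS and none only in Hras.Myc+PD there, though Met had 1 of the latter farther inside the gene. Collagen genes had 32 of 77 (41.6%, 30.4 to 53.4), led by Col15a1 and Col9a1 with 6 each. Hdac7SA.Mef2d had all 23 collagen promoters open and Hras.Myc+PD had 19, the exceptions being Col1a2, Col6a3, Col8a2 and Col9a1. Beside this, 1137 of 21827 genes had a promoter open only in Hdac7SA.Mef2d. By rank in Hdac7SA.Mef2d, Col1a2 stood at 24.2, Col6a3 at 5.75, Col8a2 at 8.61 and Col9a1 at 14.9, in the weakest 25% of the list. The Col8a2 locus was also open in untreated Hras.Myc and Hras.E1A, and the Col1a2 locus in Hras.E1A with PD. Integrin and focal adhesion genes had 36 of 93 (38.7%, 28.8 to 49.4).

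Hox genes, which set regional identity, had a larger share open only in Hras.Myc+PD than the 6.21% of all genes. Still, more of their loci were open only in Hdac7SA.Mef2d. They had 14 of 96 loci open only there (14.6%, 8.21 to 23.3), and 19 only in Hdac7SA.Mef2d (19.8%, 12.4 to 29.2). Away from promoters the share only in Hras.Myc+PD was 6 of 51 (11.8%, 4.44 to 23.9). That interval held the 8.26% of all distal loci within that distance. Promoters of Hoxa11 and Hoxc9 were open only in Hras.Myc+PD, and those of Hoxb2 and Hoxb8 only in Hdac7SA.Mef2d. Of the other 5 lists, all had those of Hoxa11 and Hoxb8 open, and all except Hras.E1A with PD that of Hoxc9. The Hoxb2 promoter was also open in Hras.E1A with and without PD. Targets and feedback regulators of ERK had 8 of 75 loci open only in Hras.Myc+PD (10.7%, 4.72 to 19.9) and 15 only in Hdac7SA.Mef2d (interval 11.6% to 30.8%). Genes of the p53 and RB pathways had 6 of 50 (interval 4.53% to 24.3%) and 11 of 50 (interval 11.5% to 36.0%).

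Pluripotency genes had 16 of 41 loci open only in Hdac7SA.Mef2d (39.0%, 24.2 to 55.5) and 2 only in Hras.Myc+PD. Pou5f1, the Oct4 gene, was the nearest gene of 3 loci, all open only in Hdac7SA.Mef2d. Of the 4 loci within 10000 bp of the gene, 1 was shared. OG2 cells carry a reporter with Pou5f1 regulatory sequence, whose reads cannot be told from those of the gene. Klf2 and Klf4 had 2 each and Lin28a had 2. Epithelial genes had 15 of 48 (31.2%) and 5 (10.4%). Of the 2 groups, only Hras.Myc+PD had the promoter of the tight junction gene Cldn4 open, at rank 70.8. That promoter was also open in all of the other 5 lists.

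**Figure D5:**
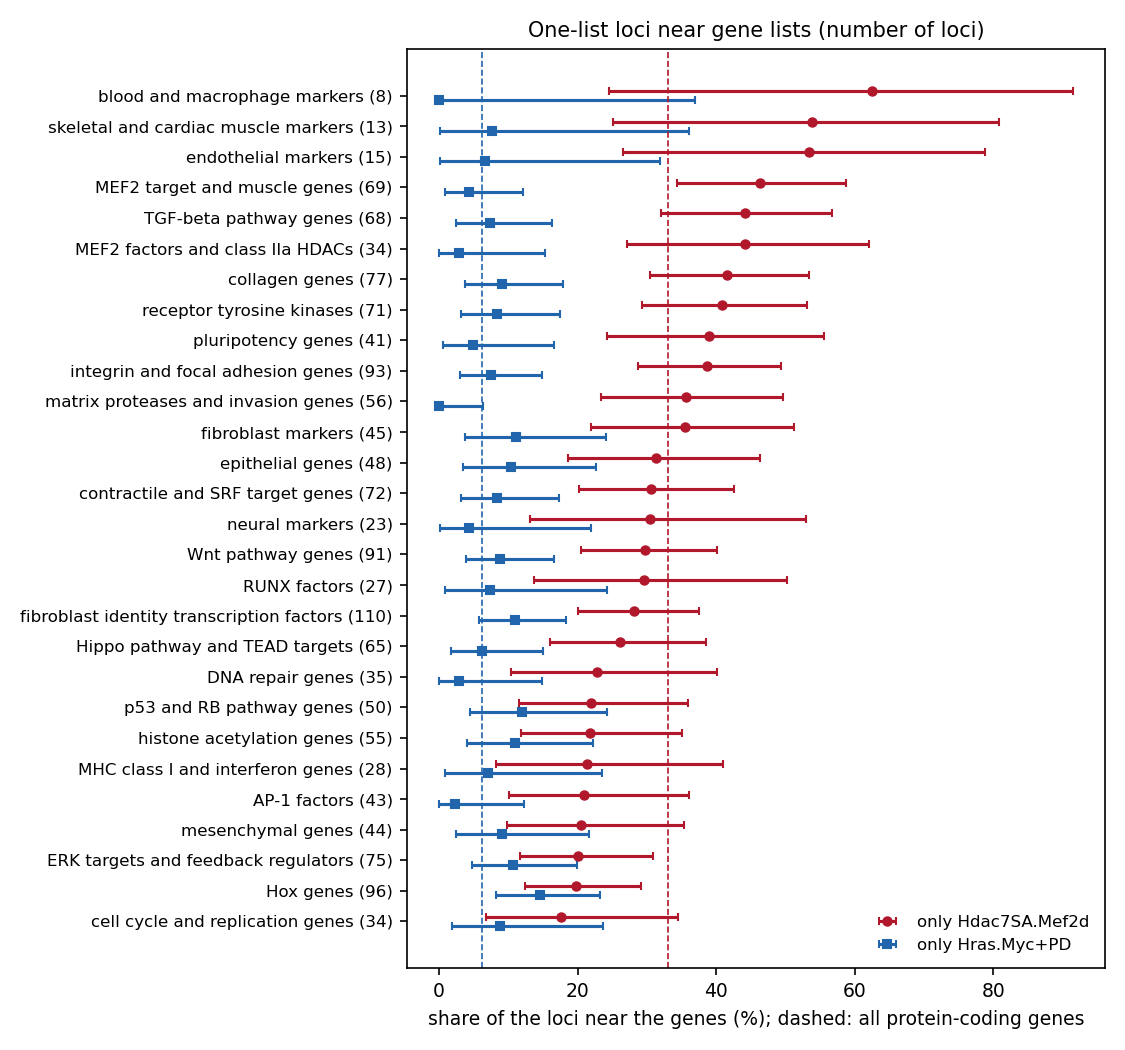
Share of the loci within 10000 bp of a TSS that were open only in Hdac7SA.Mef2d (red circles) or only in Hras.Myc+PD (blue squares) for 28 gene lists, with the number of loci in parentheses and exact 95% intervals for counting error. Dashed lines mark the shares over all protein-coding genes, 33% and 6.21%, and most intervals cross them.

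With lists of equal size, 13.5% of loci within 10000 bp were open only in Hdac7SA.Mef2d and 50% only in Hras.Myc+PD. The MEF2 targets and muscle genes then had 10 of 47 (21.3%, 10.7 to 35.7) and 20 of 47 (42.6%, 28.3 to 57.8). Both intervals held the shares of all loci within that distance. With the full lists, the intervals of collagen, receptor tyrosine kinase and pluripotency genes had held the 33% of all loci. At equal size their shares open only in Hdac7SA.Mef2d were below 13.5%. Collagen genes had 6 of 51 (11.8%, 4.44 to 23.9) open only there and 37 of 51 (72.5%, 58.3 to 84.1) only in Hras.Myc+PD. Receptor tyrosine kinases had 12.5% (4.73 to 25.2) and 64.6% (49.5 to 77.8), and pluripotency genes 7.41% (0.910 to 24.3) and 59.3% (38.8 to 77.6). Hox genes had 1 of 78 and 68 of 78 (87.2%, 77.7 to 93.7), the highest share of any list on the Hras.Myc+PD side.

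Among single genes, Tmcc1, which encodes a protein of the endoplasmic reticulum, had the largest net number of loci open only in Hdac7SA.Mef2d, with 9 of 11 and none only in Hras.Myc+PD. Fhl1, a LIM-domain protein of muscle, had 7 of 9. Its strongest, over a coding exon at an inner TSS (chrX:56779312-56779711), ranked 88.1, and its shared locus 102 bp before the first TSS ranked 53.6 in Hdac7SA.Mef2d and 89.1 in Hras.Myc+PD. Bdnf, a neurotrophin, had 7 of 10 and the tyrosine phosphatase Ptpre 7 of 11. Foxp1, a forkhead factor, had 6 of 14, Pik3c2g, a lipid kinase, and the thyroglobulin gene Tg 6 of 7 each, and Sptbn1, a spectrin, 7 of 10 with 1 only in Hras.Myc+PD. Gramd1b, which moves sterols, had 8 of 14 and 1, and Synj2, a phosphoinositide phosphatase, 9 of 16 and 2. Beside 21.6% of the whole class, the loci also open in untreated Hras.Myc numbered 0 of 7 at Fhl1 and Tgfbr1, 0 of 6 at Pik3c2g, 1 of 6 at Foxp1 and Tg, 1 of 7 at Bdnf and Sptbn1, 2 of 9 at Tmcc1, 2 of 6 at Col15a1, 3 of 7 at Ptpre, 3 of 8 at Gramd1b and 3 of 9 at Synj2. With lists of equal size the net number went below 0 at Bdnf, Gramd1b, Synj2, Foxp1 and Sptbn1.

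Wnt7b, a Wnt ligand, led the loci open only in Hras.Myc+PD, with 4 of 5 within 10000 bp of a TSS and none only in Hdac7SA.Mef2d there. They ranked from 1.62 to 4.11, at the weak end of the list. Farther inside the gene an intron locus (chr15:85555934-85556333) was open only in Hdac7SA.Mef2d, at rank 53.5. Cdkn1a, the cell cycle inhibitor p21, had 3 of 5, at ranks 3.43, 7.73 and 17.1, and all 3 were open in untreated Hras.Myc as well. Pde10a, a cyclic nucleotide phosphodiesterase, had 3 of 8, and the neuronal gene Lingo1, Net1, the chemokine Cxcl10, the glycine transporter Slc6a9 and the transglutaminase Tgm2 had 3 each and none only in Hdac7SA.Mef2d within that distance. Beyond it, loci open only in Hdac7SA.Mef2d lay in an intron of Slc6a9 (rank 89.4), in introns of Lingo1 (71.8 and 44.4), in introns at Tgm2 (81.3, 27.3 and 24.8) and nearest to Cxcl10 (97.5). At Tgm2 the net number within 50000 bp was 1 in favour of Hdac7SA.Mef2d.

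The strongest single-list loci lay at other genes. The highest ranked locus open only in Hdac7SA.Mef2d (chr10:22223458-22223857) lay in an intron nearest to H60b, with a score of 53.7, and was open in every list except Hras.Myc+PD. The next, in an intron nearest to Tnfrsf11b (osteoprotegerin, a decoy receptor in bone), had a score of 33.1 and was open in no other list. The third was the Col4a5 locus with 2 AP-1 motifs, which was open in untreated Hras.Myc. In Hras.Myc+PD the highest (chr6:10690535-10690934) had a score of 36.4, lay far from any gene with Ndufa4 the nearest, and was also open in untreated Hras.Myc. The second and the fourth lay in introns with Rhou as the nearest gene, and were also open in untreated Hras.Myc. A locus in an intron nearest to Ascc3 was open in no other list.

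At the genes the study singled out, Cdh1 (E-cadherin) had 4 shared loci in the gene, its promoter among them, and 4 open only in Hdac7SA.Mef2d, at ranks of 18.9, 57.4 and 82.5 for the weaker 3. The strongest (chr8:106656042-106656441) held an AP-1 motif and was also open in untreated Hras.Myc. Epcam and Isl1 had 1 shared locus each in the gene. Tcf7l2 (TCF4), which binds beta-catenin in Wnt signalling, had 9 shared loci, 11 open only in Hdac7SA.Mef2d and 1 only in Hras.Myc+PD.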

How the data were processed

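The authors aligned ATAC-seq reads and ran MACS2 for peaks. Weak peaks were then added back by redefine_peaks, so a peak in one sample can rest on evidence from another. According to the submitters' processing notes, the tools were MACS2 2.2.7.1 and Bowtie2 2.4.5 and the build was mm10. They deposited 1 peak list per group, with replicates pooled, in which every peak is 400 bp wide and has a score (the sources used here do not give its scale). The deposited score served only to rank peaks within a list. Depth is unknown.

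Overlapping peaks (1 bp or more) of the 7 lists were merged on the autosomes, X and Y, and a locus was open where a list had a peak. The nearest gene of a locus was that of the closest protein-coding TSS in GENCODE M21 (GRCm38). Motif shares were weighted to 10 bins of GC content. Intervals are exact binomial (Clopper-Pearson) 95% intervals, and approximate ones for ratios. No test was made. Python 3.11.15 and scipy 1.17.1 were used, and the procedure was tested on simulated data.

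The comparison, the 28 gene lists and the motifs were chosen with earlier results of these data known. Genes were named by a rule: the 12 with the largest net number of single-list loci within 10000 bp in each class (ties by 50000 bp, then symbol; predicted genes left out), those nearest to the 8 highest ranked loci of each class and to the 6 shared loci with the largest rank difference each way, up to 4 members of each gene list, Cdh1, Epcam, Isl1, Tcf7l2 and the transgenes. Part of these names is printed. Members named because their promoter was open in 1 list only, and members with promoter sequences, were chosen after their values were seen.

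Alternatives were a 50% cover of the locus, 50% reciprocal overlap without merging, merging of the 2 lists alone, a tolerance of 500 bp, equal size, removal of the weakest 25% of peaks, autosomes only, promoters of 500 and 2500 bp, gene windows of 5000 and 50000 bp, no promoter loci, a motif window of 100 bp and no GC weighting. Cutting all 7 lists to equal size was added after seeing the data.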

Additional observations from a re-analysis of the deposited data

How the results depend on the processing

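No paired analysis was possible because each group had 1 list in which the replicates were pooled, and for the same reason no replicate could be left out. Counts of loci stayed within 1.5 times under every alternative except equal size, where shared loci numbered 24052, loci open only in Hdac7SA.Mef2d 32649 and loci open only in Hras.Myc+PD 32190. With equal numbers of peaks the last 2 counts are nearly equal by construction. Cutting all 7 lists gave the same counts and is no separate check. Hras.Myc+PD has the shortest list, so both forms compare the same peaks of the 2 groups. Promoter shares, in the order shared, only Hdac7SA.Mef2d and only Hras.Myc+PD, were 27.2%, 1.26% and 23.3% with equal size in either form, 30.6%, 3.28% and 9.22% without the weakest 25% of peaks, 26.3%, 1.96% and 5.23% within 500 bp, and 30.9%, 4.99% and 10.7% within 2500 bp. With a tolerance of 500 bp the last 2 were 2.63% and 6.65%. The AP-1 ratio of the Hdac7SA.Mef2d class was 1.70 without GC weighting, 1.26 without promoter loci and 1.23 with equal size, and that of the Hras.Myc+PD class 0.72 without GC weighting. Without GC weighting, ratios in the Hdac7SA.Mef2d class whose interval excluded 1 crossed it for TEAD (1.24), MEF2 (1.31), E2A-type E-boxes (0.87), TWIST E-boxes (1.17), HOX (1.60) and GATA (1.61). Ratios whose interval held 1 crossed it for SRF (1.18), TCF/LEF (1.34), KLF (0.68) and STAT (1.02). Loci of that class are poorer in GC than shared ones (44.0% against 54.0%). Net loci turned at Bdnf (-1), Gramd1b (-4), Synj2 (-4), Foxp1 (-4) and Sptbn1 (-3) with equal size, and at Tgm2 (1) within 50000 bp. The cause was not tested beyond the 23694 loci whose weaker Hdac7SA.Mef2d peak the cut removed.

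The lists share peak information, so they are not independent, and the score's scale is unknown. Depth limits every absence of a peak. Line and drug cannot be told apart.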

Other observations

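Loci open in a single list were also counted in windows of 100000 bp, a description chosen after the data were seen. The densest window of loci open only in Hdac7SA.Mef2d lay at Egfr, the receptor of epidermal growth factor, with 19 such loci, 3 shared and 2 open only in Hras.Myc+PD. Windows at Cobl, an actin nucleator, held 17, at Pdzrn3 16, and at Mthfd1l and the potassium channel gene Kcnma1 15 each. A window at Tnfsf4 held 15 and no shared locus. Loci open only in Hras.Myc+PD were less dense. Their fullest window, nearest to Rybp, a Polycomb gene, held 9, and one at Col13a1 held 8.

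Some shared loci stood at opposite ends of the score order. A locus in an intron of Foxp1 (chr6:99057182-99057581) ranked 99.1 in Hdac7SA.Mef2d and 1.41 in Hras.Myc+PD. A locus upstream of Tbx3, which encodes a T-box factor, ranked 97.1 and 2.66 and held an AP-1 motif. In the other direction, a locus nearest to Rdh14 (chr12:10519052-10519451) ranked 0.153 and 99.4, and a locus at the start of Tnfsf18, with HOX and TEAD motifs, ranked 0.535 and 99.2.

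By chromosome, the share of Hdac7SA.Mef2d loci that were open only there went from 51.7% on chromosome 7 to 65.2% on chromosome 14. Chromosome Y, with 12 loci, was left out of that range.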
